A study of Homo sapiens with 28 samples.

Results

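Breast cancer cells of the line MDA-MB-231 that overexpressed Tropomyosin 2.1 and had spent 1 day in suspension were split by Annexin V binding, and the RNA of the apoptotic cells is set here against that of the non-apoptotic cells of the same line and time. The comparison holds 4 of the 28 libraries of the series, 2 of each fraction, chosen by the library names in the count table. MDA-MB-231 is an established human line from a triple-negative breast carcinoma, and the cells compared carried the Tpm2.1 overexpression in both fractions, were kept in puromycin and in medium with fetal bovine serum, and were held off the substrate in ultra-low attachment plates. The other libraries were Tpm2.1 cells and empty vector (EV) control cells that were attached for 6 hours or in suspension for 5 hours, 1 day, 2 days or 4 days, with EV cells left unsorted. How the overexpressing line was derived, and whether it is 1 clone, is not given in the sources used here. Labels call the libraries biological replicates without saying which cultures they came from. The p-values thus measure the spread between libraries of a group, pooled over all 28 libraries, and that spread may be technical in part.

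Apoptosis that follows loss of attachment is called anoikis. A cell commits to it when BH3-only proteins, which sense stress, overcome the BCL2 survival proteins and let BAX and BAK1 open the outer mitochondrial membrane, after which the apoptosome activates caspases. Caspases also activate scramblases and disable flippases, so that phosphatidylserine appears on the outer face of the plasma membrane, where Annexin V binds it. Most of these steps act on proteins that are already made, and RNA decay and a halt of protein synthesis are known features of dying cells. Tropomyosins are coiled-coil proteins that lie along actin filaments, and Tpm2.1, a product of TPM2, is known for loss in breast cancer lines.

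Total counts were 14709948 and 13271736 in the apoptotic libraries, against 14737386 and 19523273 in the non-apoptotic libraries, within the range of 13043529 to 27416335 over the series. Levels below are in CPM (counts over library totals scaled by TMM), differences are log2 fold changes of apoptotic over non-apoptotic cells with their standard error (SE), and p-values come from edgeR's quasi-likelihood F test adjusted over all 17191 genes tested. At an adjusted p of 0.05, 3317 genes differed between the fractions, which is 19.3% of those tested. Of these, 1373 were higher in apoptotic cells (7.99%) and 1944 were lower (11.3%). When the 4 libraries were fitted alone, 2754 genes differed and 55.4% of them were higher, against 41.4% in the fit over all libraries. Left out in turn, apoptotic library 2 lowered the count to 1755 genes and non-apoptotic library 1 to 1871, and 2391 genes differed without apoptotic library 1 and 2217 without non-apoptotic library 2. Calls were also made under 10 other settings of tool, filter, gene set, library set or correction. The size of the differences was unequal: 365 genes were past 2-fold higher (2.12%) and 18 were past 2-fold lower (0.105%). Most of the large increases were outside the protein-coding genes, of which 123 were past 2-fold higher and 6 past 2-fold lower. The median log2 fold change was -0.05 over protein-coding genes and -0.02 over all genes tested.

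**Figure D1:**
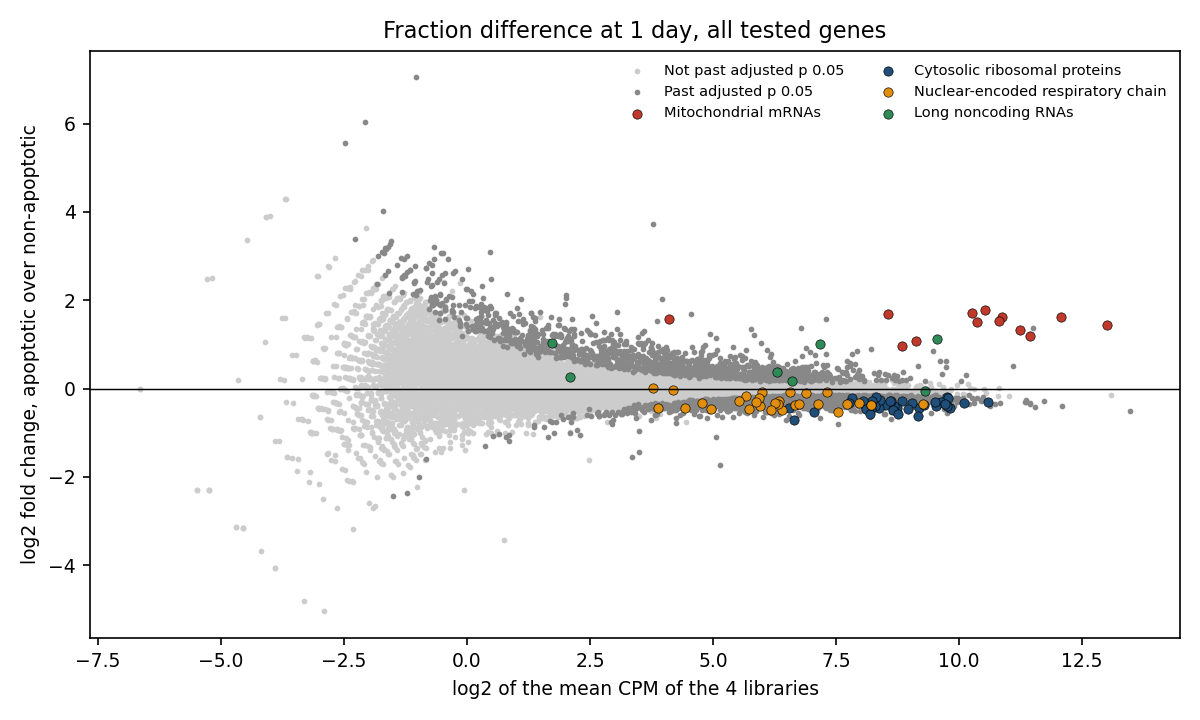
Log2 fold change of apoptotic over non-apoptotic cells at 1 day (vertical axis) against log2 of the mean CPM of the 4 libraries (horizontal axis), 1 point per tested gene. The 13 mitochondrial mRNAs (red) lie between 0.97 and 1.79, while the 40 cytosolic ribosomal protein genes (blue) all lie below 0, at a median of -0.38.

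In bulk fractions, fewer cells of a kind and less RNA per cell cannot be told apart, and CPM are relative to the total, so that a fall in total RNA per cell would not show. The libraries fit their labels in the markers checked. TPM2 had 3970.4 and 3584 CPM in apoptotic cells and 4655 and 5265 CPM in non-apoptotic cells, against a mean of 45.6 CPM in EV cells at 1 day. Both fractions thus carried the overexpression, at a level that was lower in apoptotic cells (log2 fold change -0.39, SE 0.071, adjusted p 1.05e-04). Vimentin, the mesenchymal filament gene that marks this line, had 743 and 789.7 CPM in apoptotic cells and 822 and 801 CPM in non-apoptotic cells. The epithelial keratins KRT8 and KRT18 were lower in apoptotic cells, with log2 fold changes of -0.30 and -0.32. Of 11 markers of blood and immune cells, 4 and 5 had a count in the apoptotic libraries and 3 and 5 in the non-apoptotic ones, mostly of CD8A and CD14, and they summed, without TMM scaling, to 6.39 and 8.67 CPM in apoptotic cells and 7.80 and 8.30 CPM in non-apoptotic cells. PTPRC, CD3E, MS4A1 and HBB, which define leukocytes, T cells, B cells and red cells, were at 0 in all 4 libraries. Of 10 markers of endothelial cells and fibroblasts, CDH5 was at 0 in all 4 libraries, and the sum was 77.4 and 74.1 CPM in apoptotic cells and 68.0 and 64.9 CPM in non-apoptotic cells, most of it from COL1A1.

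The genes of the apoptosis machinery differed little in RNA between apoptotic and non-apoptotic cells. Of 48 tested genes in 5 lists (BH3-only genes, BCL2 survival genes and effectors, caspases and apoptosome genes, death receptors with their ligands and adaptors, and IAP genes with CFLAR), 3 were higher and 5 lower, or 16.7%, which is near the 19.3% of all genes. Their median log2 fold change was -0.04, and the 37 with at least 10 CPM in a fraction ranged from -0.32 to 0.24.

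Among the BH3-only genes, the initiators, none of 7 passed. BMF, whose protein is known to be released from the cytoskeleton on detachment, had 16.5 and 16.6 CPM in apoptotic cells and 16.2 and 18.1 CPM in non-apoptotic cells, so the groups overlapped (log2 fold change -0.06, SE 0.10, adjusted p 0.749). EV cells at 1 day averaged 44.6 CPM of BMF, and attached Tpm2.1 cells 3.45 CPM. BCL2L11, which encodes BIM, had 21.4 and 17.2 CPM in apoptotic cells and 18.5 and 16.7 CPM in non-apoptotic cells, again with overlap. The p53-induced gene BBC3 (PUMA) had 8.76 and 8.88 CPM in apoptotic cells against 8.14 and 8.23 CPM in non-apoptotic cells (adjusted p 0.676). PMAIP1 (NOXA), a neutraliser of MCL1, had 98.4 and 101 CPM in apoptotic cells and 106 and 98.9 CPM in non-apoptotic cells.

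Of the 8 BCL2 survival genes and effectors, 2 were lower. BAK1, which forms pores in the outer mitochondrial membrane, had 65.4 and 59.8 CPM in apoptotic cells and 74.7 and 70.8 CPM in non-apoptotic cells (log2 fold change -0.21, adjusted p 0.0265). BCL2L1, the gene of the survival protein BCL-XL, had 146 and 145 CPM in apoptotic cells and 166 and 165 CPM in non-apoptotic cells (log2 fold change -0.18, adjusted p 0.0282). An antisense gene shares 43.0% of the exonic bases of BCL2L1, and with no strand stated for the counting its reads cannot be told apart. The groups overlapped in BAX, at 62.2 and 59.3 CPM in apoptotic cells and 58.8 and 63.9 CPM in non-apoptotic cells, and in the short-lived survival gene MCL1, at 569 and 552 CPM in apoptotic cells and 539 and 573 CPM in non-apoptotic cells. BAK1 (adjusted p 0.186 to 0.273) did not pass without apoptotic library 2 or non-apoptotic library 1 and BCL2L1 (adjusted p 0.08 to 0.129) without any 1 of the 4 libraries. BAK1 also did not pass in 3 settings that kept every library (adjusted p 0.0544 to 0.091) and BCL2L1 in 3 (adjusted p 0.0588 to 0.0709).

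Among 15 caspase and apoptosome genes, 2 were lower in apoptotic cells and 1 was higher. CASP6, an executioner caspase, was lower and had 16.0 and 16.7 CPM in apoptotic cells and 21.9 and 19.2 CPM in non-apoptotic cells (log2 fold change -0.32, adjusted p 0.0328). DIABLO, whose protein leaves mitochondria and blocks the IAP proteins, was higher at 4.70 and 5.53 CPM in apoptotic cells against 2.63 and 3.01 CPM in non-apoptotic cells (log2 fold change 0.85, SE 0.23, adjusted p 0.00752). That value is uncertain, because 30.4% of its exonic bases are shared with overlapping genes, among them a second gene entry of the same name, and its level is low. Of the 7 IAP genes with CFLAR, 2 were higher: XIAP, a direct caspase inhibitor, with 60.8 and 64.0 CPM in apoptotic cells and 51.2 and 55.2 CPM in non-apoptotic cells (adjusted p 0.0416), and CFLAR, which blocks caspase 8 at death receptors, with 56.8 and 57.6 CPM in apoptotic cells and 47.2 and 49.5 CPM in non-apoptotic cells (adjusted p 0.0497). Of 11 death receptor genes, the adaptor kinase RIPK1 was lower (log2 fold change -0.19, adjusted p 0.027), and the TRAIL receptor genes TNFRSF10A and TNFRSF10B had log2 fold changes of -0.19 and -0.04 and did not pass. CASP6 (adjusted p 0.0952 to 0.285) did not pass without apoptotic library 1, apoptotic library 2 or non-apoptotic library 1, DIABLO (adjusted p 0.0759 to 0.0952) without apoptotic library 2 or non-apoptotic library 1 and XIAP (adjusted p 0.0652 to 0.288), CFLAR (adjusted p 0.114 to 0.247) and RIPK1 (adjusted p 0.0753 to 0.146) without any 1 of the 4 libraries. CASP6 also did not pass in 4 settings that kept every library (adjusted p 0.0533 to 0.097), DIABLO in 1 (adjusted p 1), XIAP in 2 (adjusted p 0.0608 to 0.133), CFLAR in 3 (adjusted p 0.0533 to 0.224) and RIPK1 in 3 (adjusted p 0.0546 to 0.1).

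None of 14 flippase and scramblase genes passed, the group that sets on which side of the membrane phosphatidylserine lies. XKR8, the scramblase that caspases activate, had 20.3 and 21.3 CPM in apoptotic cells and 22.1 and 20.6 CPM in non-apoptotic cells. TMEM30A, a subunit that flippases need, had 179 and 182 CPM in apoptotic cells and 177 and 158 CPM in non-apoptotic cells (adjusted p 0.215). Of 17 p53 target genes, PLK3 (log2 fold change 0.42, adjusted p 0.00715) and MDM2 (log2 fold change 0.22, adjusted p 0.0371) were higher, and the cell cycle inhibitor CDKN1A had 204 and 178 CPM in apoptotic cells and 214 and 204 CPM in non-apoptotic cells (adjusted p 0.132). PLK3 and MDM2 make 11.8% of the list, beside 7.99% of all genes higher. PLK3 (adjusted p 0.0745 to 0.235) did not pass without apoptotic library 2 or non-apoptotic library 1 and MDM2 (adjusted p 0.0603 to 0.382) without apoptotic library 2, non-apoptotic library 1 or non-apoptotic library 2. MDM2 also did not pass in 2 settings that kept every library (adjusted p 0.0983 to 0.19).

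**Figure D2:**
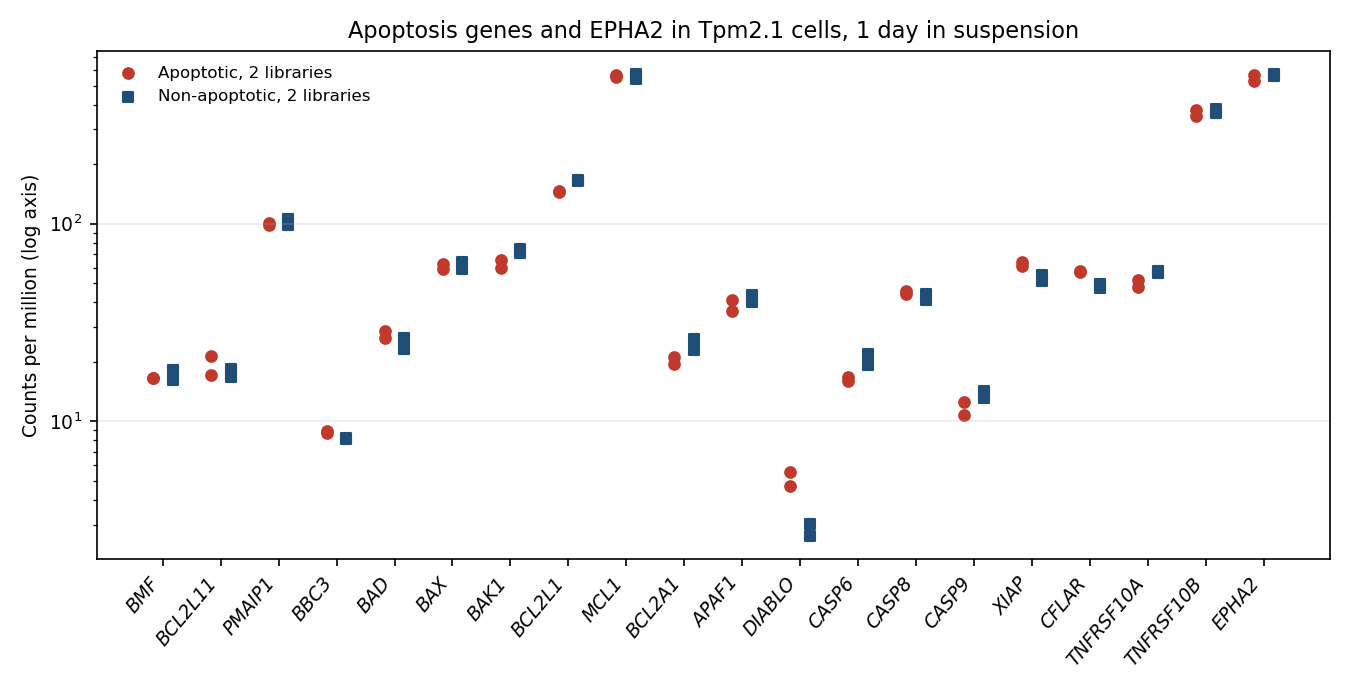
CPM per library (log vertical axis) of apoptosis genes and EPHA2 in Tpm2.1 cells at 1 day, apoptotic libraries as red circles to the left and non-apoptotic libraries as blue squares to the right. The 2 fractions lie close together for nearly every gene; DIABLO, at 4.70 and 5.53 CPM in apoptotic cells and 2.63 and 3.01 CPM in non-apoptotic cells, is set widest apart.

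All 13 mRNAs encoded by the mitochondrial genome were higher in apoptotic cells, with a median log2 fold change of 1.54. These mRNAs encode core subunits of the respiratory chain and of ATP synthase and are made from long transcripts of both strands of the circular genome. They took 4.03% and 4.44% of all counts in the apoptotic libraries, against 1.37% and 1.58% in the non-apoptotic libraries. MT-CO1, a catalytic subunit of cytochrome c oxidase, had 11479 and 12522 CPM in apoptotic cells and 4277 and 4621 CPM in non-apoptotic cells, 2.70-fold higher (log2 fold change 1.43, SE 0.12, adjusted p 2.28e-11). MT-ND1, a subunit of complex I, had 2193 and 2376 CPM in apoptotic cells and 585 and 739 CPM in non-apoptotic cells, 3.45-fold higher (log2 fold change 1.79, SE 0.12, adjusted p 2.27e-12). This was the largest difference of the 13, and MT-ND3 the smallest, at 652 and 561 CPM in apoptotic cells and 261 and 356 CPM in non-apoptotic cells (log2 fold change 0.97, SE 0.11). For each of the 13 the libraries of the fractions did not overlap, as was so for 58.9% of all genes tested. MT-ND6, the one member transcribed from the other strand, was higher like the rest, with 557 and 598 CPM in apoptotic cells and 153 and 207 CPM in non-apoptotic cells (log2 fold change 1.68). With no strand stated for the counting, its reads cannot be told apart from those of transcripts of the opposite strand.

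Per length, on the FPKM scale the authors deposited, MT-ND4 stood at 4391 and 4974 FPKM in apoptotic cells and 1386 and 1626 FPKM in non-apoptotic cells. The ribosomal protein gene RPS18 stood at 248 and 226 FPKM in apoptotic cells and 352 and 365 FPKM in non-apoptotic cells, and BMF at 3.0 and 3.04 FPKM in apoptotic cells and 2.92 and 3.25 FPKM in non-apoptotic cells. The nuclear pseudogenes of mitochondrial genes, which can share their reads, are not part of the 13.

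Other transcripts of the mitochondrial chromosome moved the same way. Of 34 tested genes there, 26 were higher and none lower. Both ribosomal RNAs were among them, MT-RNR2 with 4008 and 4335 CPM in apoptotic cells and 1569 and 1643 CPM in non-apoptotic cells (log2 fold change 1.38, SE 0.11). Of 19 mitochondrial tRNA genes, 11 were higher. The libraries hold poly-A RNA, so these counts need not follow the level of mature tRNAs. By share of counts, mitochondrial mRNA took 4.09% and 4.36% in unsorted EV cells at 1 day, close to the apoptotic fraction, and 2.14% and 2.18% in attached Tpm2.1 cells. The apoptotic fraction had 3.87% and 5.34% at 5 hours, 4.14% and 2.67% at 2 days, while the non-apoptotic fraction had 1.62% and 1.44% at 5 hours and 1.31% and 1.22% at 2 days. All 13 mRNAs were higher in apoptotic cells at both those times also, where 9.66% of all genes were higher at 5 hours and 6.92% at 2 days.

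**Figure D3:**
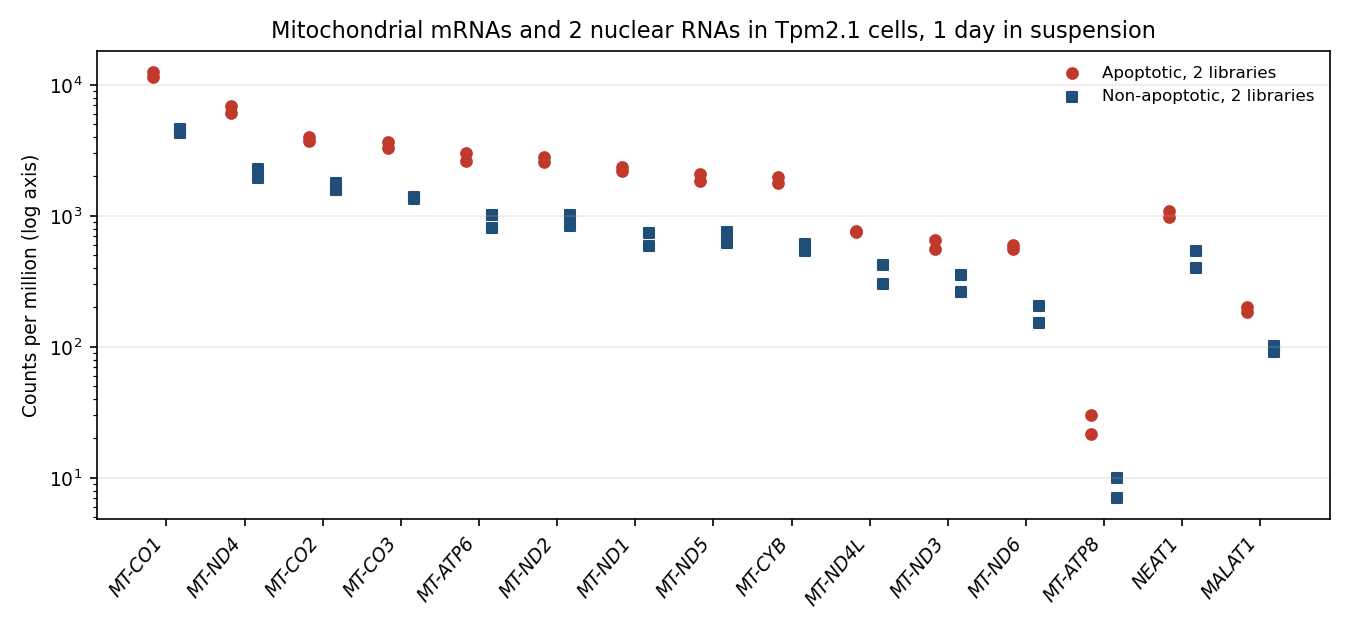
CPM per library (log vertical axis) of the 13 mitochondrial mRNAs and of the nuclear RNAs NEAT1 and MALAT1, apoptotic libraries as red circles to the left and non-apoptotic libraries as blue squares to the right. For each of the 15 RNAs both apoptotic libraries lie above both non-apoptotic ones.

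Several long noncoding RNAs were also higher in apoptotic cells, at 57.1% of the list below, beside 7.99% of all genes. Of 7 tested from a list of abundant long noncoding RNAs, some of which are known to stay in the nucleus, 4 were higher and none lower. NEAT1, the RNA that builds paraspeckles, had 985 and 1080.1 CPM in apoptotic cells and 401 and 541 CPM in non-apoptotic cells, 2.19-fold higher (log2 fold change 1.13, SE 0.12, adjusted p 1.51e-08). MALAT1, an RNA of nuclear speckles, had 184 and 202 CPM in apoptotic cells and 101 and 90.7 CPM in non-apoptotic cells (log2 fold change 1.01, SE 0.094, adjusted p 7.72e-10). KCNQ1OT1, which silences neighbouring imprinted genes, was higher at 3.87 and 5.04 CPM in apoptotic cells and 1.97 and 2.32 CPM in non-apoptotic cells (adjusted p 0.0301), and SNHG1, a host of small nucleolar RNAs, was higher by a log2 fold change of 0.37 (adjusted p 2.57e-04). NORAD, which acts in the cytoplasm, had 610.5 and 624 CPM in apoptotic cells and 637 and 655 CPM in non-apoptotic cells and did not pass (log2 fold change -0.07). KCNQ1OT1 (adjusted p 0.0882 to 0.224) did not pass without apoptotic library 2, non-apoptotic library 1 or non-apoptotic library 2. KCNQ1OT1 also did not pass in 1 setting that kept every library (adjusted p 0.172).

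By annotated class, 132 of 1129 antisense genes were higher (11.7%, beside 7.99% of all genes) and 4 lower (0.354%, beside 11.3% of all genes), with a median log2 fold change of 0.43. Of 176 sense intronic genes, 27 were higher (15.3%) and none lower, at a median of 0.68. Of 877 lincRNA genes, 78 were higher (8.89%, near the share of all genes) and 3 lower (0.342%), at a median of 0.22. Protein-coding genes went the other way on balance, with 947 of 13343 higher (7.10%) and 1886 lower (14.1%). Processed pseudogenes, most of which are copies of spliced mRNAs, had 19 of 556 higher (3.42%) and 42 lower (7.55%). Since the counting is not stated to use strand, reads of an antisense or intronic gene cannot be told apart from those of its partner. Examples from these classes, chosen after their values were seen, are GABPB1-AS1 with 76.8 and 83.0 CPM in apoptotic cells and 33.4 and 35.1 CPM in non-apoptotic cells (log2 fold change 1.22, SE 0.13) and PSMA3-AS1 with 77.2 and 92.8 CPM in apoptotic cells and 39.8 and 42.5 CPM in non-apoptotic cells (log2 fold change 1.04, SE 0.11).

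Genes of the cytosolic ribosome were lower in apoptotic cells. All 40 tested members of the list passed, each lower, with log2 fold changes between -0.72 and -0.20 and a median of -0.38, against 11.3% of all genes lower. Together they took 1.91% and 1.81% of counts in apoptotic cells and 2.31% and 2.32% in non-apoptotic cells. RPS18, a protein of the small subunit, had 476 and 431 CPM in apoptotic cells and 680.2 and 710.0 CPM in non-apoptotic cells (log2 fold change -0.62, SE 0.061, adjusted p 2.87e-09). RPL37, a protein of the large subunit, had 251 and 219 CPM in apoptotic cells and 334 and 362 CPM in non-apoptotic cells (log2 fold change -0.57, SE 0.063), and RPS4X, from the X chromosome, had 357 and 358 CPM in apoptotic cells and 489 and 492 CPM in non-apoptotic cells (log2 fold change -0.46, SE 0.051). In all 3 both apoptotic libraries lay below both non-apoptotic ones. RPS27, RPL37A and RPL39, ribosomal protein genes outside the list, were among the 12 lowest protein-coding genes, with RPS27 at 149 and 121 CPM in apoptotic cells and 239 and 234 CPM in non-apoptotic cells (log2 fold change -0.81, SE 0.084, adjusted p 9.08e-09). The share of mitochondrial mRNA differed between the same libraries, and with mitochondrial genes left out of totals and test 40 of the 40 were lower. These genes have many processed pseudogenes, so counting could move some of their reads.

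mRNAs of ribosomal proteins are known to begin with a C and a run of pyrimidines, through which the growth pathway of mTOR controls their translation. Of the 40 genes, 30 matched the RefSeq table of starts (build GRCh38.p14), with 42 listed starts, and 19 of these starts (45.2%) begin with a C followed by at least 4 bases that are C or T, against 4.07% of 35116 listed starts of all genes. The windows of 7 ribosomal protein genes that were lower are shown to make that shared start visible. Each runs from 20 bases before the start to 10 bases after it, and capitals mark the pyrimidine run from the first transcribed base on.
RPS18 (chr6:33272055-33272084, GRCh38.p14, plus strand): gatatcgcgtcacttccgctCTCTCTTCCa
RPS14 (chr5:150449730-150449759, GRCh38.p14, minus strand): tcgctccgccccctcccactCTCTCTTTCC
RPS3 (chr11:75399498-75399527, GRCh38.p14, plus strand): cttccgcccgcgagccacttCCTTTCCTTT
RPL38 (chr17:74203658-74203687, GRCh38.p14, plus strand): ccggaaacggaagtctcgttCTTTTTCgtc
RPS27 (chr1:153990742-153990771, GRCh38.p14, plus strand): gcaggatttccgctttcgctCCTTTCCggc
RPL37A (chr2:216498824-216498853, GRCh38.p14, plus strand): cctgcgcaccgcgtctcttcCTTTCTgggc
RPL39 (chrX:119791621-119791650, GRCh38.p14, minus strand): gctcgttcttccgccagcttCCCTCCTCTT

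Other genes of protein synthesis were lower in part, at 54.2% of translation factor genes and 32.0% of mitochondrial ribosomal protein genes, beside 14.1% of protein-coding genes. Of 24 tested translation factor genes, 13 were lower and 2 higher. EEF1A1, the factor that brings aminoacyl-tRNA to the ribosome, had 9366 and 9558 CPM in apoptotic cells and 13712 and 13019 CPM in non-apoptotic cells (log2 fold change -0.50, SE 0.061, adjusted p 2.04e-07). EIF3H, a subunit of an initiation complex, was lower (log2 fold change -0.36, adjusted p 1.77e-05). EEF1D, an exchange factor of EEF1A1, was higher with 170.2 and 170.5 CPM in apoptotic cells and 94.1 and 107 CPM in non-apoptotic cells (log2 fold change 0.76, SE 0.09), and the helicase gene EIF4A1 was higher with 13.6 and 14.5 CPM in apoptotic cells and 6.83 and 9.76 CPM in non-apoptotic cells (log2 fold change 0.74, SE 0.15). Both are uncertain, since 34.0% of the exonic bases of EEF1D and 48.6% of those of EIF4A1 are shared with overlapping genes. Of 25 mitochondrial ribosomal protein genes, which are encoded in the nucleus, 8 were lower and none higher, and 1 was lower without apoptotic library 2, 3 without non-apoptotic library 1 and 13 with the GC trend removed, with MRPS7 at a log2 fold change of -0.27 (adjusted p 0.00368). MRPS7 (adjusted p 0.0733) did not pass without non-apoptotic library 1.

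Nuclear genes of the respiratory chain were lower (73.3%, beside 14.1% of protein-coding genes) while the mitochondrial ones were higher. Of 30 tested nuclear-encoded genes, 22 were lower and none higher, at a median log2 fold change of -0.34. COX7C, a small subunit of cytochrome c oxidase, had 161 and 145 CPM in apoptotic cells and 212 and 231 CPM in non-apoptotic cells (log2 fold change -0.54, SE 0.063, adjusted p 9.32e-08). UQCRQ, a subunit of complex III, had 74.2 and 67.6 CPM in apoptotic cells and 92.8 and 105 CPM in non-apoptotic cells (log2 fold change -0.48), and NDUFA4 had 64.5 and 55.9 CPM in apoptotic cells and 82.9 and 86.6 CPM in non-apoptotic cells (log2 fold change -0.49). The libraries of the fractions did not overlap in any of the 3, nor in COX6B1, one of the 12 lowest protein-coding genes (log2 fold change -0.65, SE 0.077).

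Protein quality control genes were lower as well, at 76.0% of the proteasome list and 86.7% of the heat shock list, beside 14.1% of protein-coding genes. Of 25 proteasome subunit genes, 19 were lower and none higher, at a median of -0.30. PSMC2, an ATPase of the regulatory cap, had 102 and 97.6 CPM in apoptotic cells and 138 and 134 CPM in non-apoptotic cells (log2 fold change -0.45, SE 0.061, adjusted p 1.73e-06), and PSMA5, of the core, had 142 and 138 CPM in apoptotic cells and 182 and 189.9 CPM in non-apoptotic cells (log2 fold change -0.41). Of 15 heat shock and chaperone genes, 13 were lower and none higher, at a median of -0.31, and 7 were lower without apoptotic library 2 or without non-apoptotic library 1 and 8 with the 4 libraries fitted alone. HSPA8, the constitutive HSP70, had 2654 and 2459 CPM in apoptotic cells and 3579 and 3210.0 CPM in non-apoptotic cells (log2 fold change -0.41, SE 0.063, adjusted p 1.00e-05). The HSP90 genes HSP90AB1 (log2 fold change -0.34) and HSP90AA1 (log2 fold change -0.32) and the HSP40 gene DNAJA1 (log2 fold change -0.32) moved alike. HSPA1A and HSPA1B, which are nearly identical and may share reads, were also lower, at -0.48 and -0.34. The factor HSF1 binds heat shock elements, alternating GAA and TTC blocks. The letters GAANNTTCNNGAA, on either strand, were in 5 of 21 listed promoter windows (23.8%) of 14 matched members, against 0.49% of the 35116 windows of all genes, each from 250 bases before to 50 after a start. A stretch of 30 bases is printed for 2 members that were lower, with the match in capitals and written on the strand of the gene. HSPA1A (adjusted p 0.653 to 0.948) and HSPA1B (adjusted p 0.139 to 0.526) did not pass without apoptotic library 2 or non-apoptotic library 1. HSPA1A also did not pass in 4 settings that kept every library (adjusted p 0.0625 to 0.208) and HSPA1B in 1 (adjusted p 0.113).
HSPA8 (chr11:123062345-123062374, GRCh38.p14, minus strand): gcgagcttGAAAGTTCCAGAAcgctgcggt
HSP90AB1 (chr6:44247770-44247799, GRCh38.p14, plus strand): ggagcaggTTCTGGAAGATTCatgggctcc

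Metabolic genes were lower more often than higher. Lower were 55.6% of the NRF2 list, 36.7% of the glycolysis and hypoxia list and 26.9% of the cholesterol list. That share was 11.3% over all genes and 14.1% over protein-coding genes. Of 18 NRF2 target genes, which serve redox balance, 10 were lower and none higher, and 6 were lower without non-apoptotic library 1. NQO1, a quinone reductase, had 504 and 465 CPM in apoptotic cells and 662 and 589.5 CPM in non-apoptotic cells (log2 fold change -0.37, SE 0.062, adjusted p 4.09e-05), and the pentose phosphate gene PGD had a log2 fold change of -0.33. Of 30 glycolysis and hypoxia genes, 11 were lower, most of them enzymes: GAPDH had 1347 and 1394 CPM in apoptotic cells and 1856 and 1771 CPM in non-apoptotic cells (log2 fold change -0.40, adjusted p 3.83e-06), and TPI1 and PGK1 had log2 fold changes of -0.43 and -0.39. The 2 that were higher were VEGFA, the secreted angiogenic factor, with 873 and 921 CPM in apoptotic cells and 663 and 764 CPM in non-apoptotic cells (log2 fold change 0.33, adjusted p 1.32e-04), and the enolase gene ENO2 (log2 fold change 0.28, adjusted p 0.0111). Of 26 cholesterol synthesis genes, 7 were lower, and 2 were lower without apoptotic library 2 or without non-apoptotic library 1. The count was 5 to 15 under the settings that kept every library, 14 with a replicate block and 15 with no filter on low counts. FDFT1, squalene synthase, had a log2 fold change of -0.42 (adjusted p 1.80e-05). ENO2 (adjusted p 0.163 to 0.242) did not pass without apoptotic library 2 or non-apoptotic library 1.

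Genes of stress pathways that often accompany cell death were lower or did not pass. Over all genes 11.3% were lower, and over protein-coding genes 14.1%. In the fit over all libraries each list below lay above both shares. Lower were 26.9% of the ATF4 list, 38.5% of the autophagy and lysosome list and 5 of 20 genes of the unfolded protein response. That last count fell to 1 or 2 in some settings. Of 26 ATF4 amino acid stress genes, 7 were lower and none higher, among them SHMT2, a mitochondrial enzyme of serine metabolism (log2 fold change -0.35, adjusted p 1.62e-05), ATF4 itself (log2 fold change -0.25, adjusted p 0.00204) and DDIT3, a factor tied to death under stress of the endoplasmic reticulum, with 19.3 and 14.3 CPM in apoptotic cells and 23.4 and 20.4 CPM in non-apoptotic cells (log2 fold change -0.37, adjusted p 0.0376). Of 20 genes of the unfolded protein response, 5 were lower and none higher, and 1 was lower without apoptotic library 2, 2 without non-apoptotic library 1, 2 with the 4 libraries fitted alone, 9 with a replicate block and 10 with no filter on low counts, with log2 fold changes of -0.30 for PDIA6, a disulfide isomerase, and -0.23 for the chaperone HSPA5 (adjusted p 0.0127). Of 26 autophagy and lysosome genes, 10 were lower and none higher, and 5 were lower without apoptotic library 2 and 4 without non-apoptotic library 1, led by GABARAPL2, of the membranes that form autophagosomes (log2 fold change -0.34, adjusted p 6.61e-04). ATF4 (adjusted p 0.113) did not pass without apoptotic library 2 and DDIT3 (adjusted p 0.272 to 0.499) and HSPA5 (adjusted p 0.243 to 0.249) without apoptotic library 2 or non-apoptotic library 1. DDIT3 also did not pass in 4 settings that kept every library (adjusted p 0.0525 to 0.105) and HSPA5 in 1 (adjusted p 0.066). The value of DDIT3 is uncertain as well because 39.6% of its exonic bases are shared with overlapping genes.

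**Figure D4:**
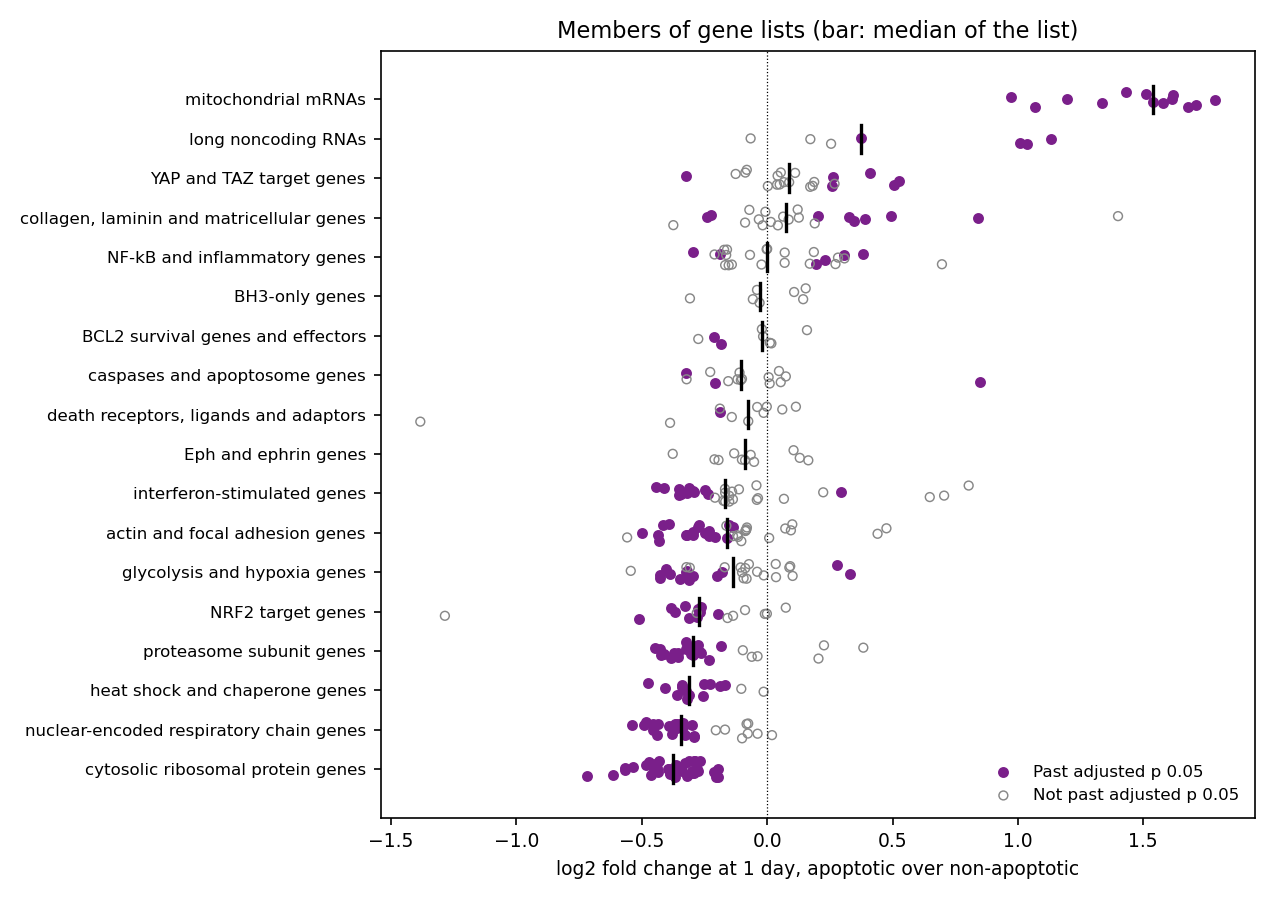
Log2 fold changes at 1 day, apoptotic over non-apoptotic (horizontal axis), of the tested members of 18 gene lists, filled where the adjusted p was under 0.05, with a bar at each list's median. Mitochondrial mRNAs, at a median of 1.54, stand to the right, and the list medians fall to -0.38 for cytosolic ribosomal protein genes.

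Interferon-stimulated genes were lower in apoptotic cells more often than higher, at 36.7% and 3.33%, beside 14.1% and 7.1% of protein-coding genes. Of 30 tested, 11 were lower and 1 higher, at a median of -0.17, and 6 were lower without apoptotic library 1 and 7 without non-apoptotic library 1 or without non-apoptotic library 2. IFIT3, an antiviral protein that works with other IFIT proteins, had 183 and 191 CPM in apoptotic cells and 257 and 252 CPM in non-apoptotic cells (log2 fold change -0.44, SE 0.075, adjusted p 4.29e-05). ISG15, a ubiquitin-like modifier, had 161 and 145 CPM in apoptotic cells and 214 and 193 CPM in non-apoptotic cells (log2 fold change -0.41, SE 0.072, adjusted p 6.44e-05). The transcription factor gene STAT2 was the member that was higher, with 116 and 117 CPM in apoptotic cells and 95.1 and 95.1 CPM in non-apoptotic cells (log2 fold change 0.29, adjusted p 0.00109). EV cells at 1 day averaged 50.2 CPM of IFIT3 and 44.5 CPM of ISG15, below both fractions, a difference not tested here. These genes are known to share the interferon-stimulated response element. The letters GAAANNGAAA, on either strand, were in 20 of 31 listed promoter windows (64.5%) of 22 matched members, against 3.57% of windows of all genes, and 3 such stretches of members that were lower are printed with the match in capitals.
IFIT3 (chr10:89327831-89327860, GRCh38.p14, plus strand): agccgttaggTTTCATTTTCctcctcccaa
ISG15 (chr1:1013374-1013403, GRCh38.p14, plus strand): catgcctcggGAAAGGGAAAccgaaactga
OAS3 (chr12:112938321-112938350, GRCh38.p14, plus strand): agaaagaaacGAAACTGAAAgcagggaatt

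Inflammatory genes were called in both directions, 16.0% higher and 8.0% lower, beside 7.99% and 11.3% of all genes. The immediate early list had 4.17% higher, and the ERK feedback list 33.3% lower, beside 14.1% of protein-coding genes lower. Of 25 NF-kB and inflammatory genes, 4 were higher and 2 lower, and 1 or 2 were higher when any 1 of the 4 libraries was left out, 2 with the GC trend removed and 7 with the 4 libraries fitted alone. The cytokine gene LIF was higher, with 135 and 136 CPM in apoptotic cells and 102 and 106 CPM in non-apoptotic cells (log2 fold change 0.38, SE 0.06, adjusted p 1.28e-05). The neutrophil attractant CXCL8 had 268 and 275 CPM in apoptotic cells and 239 and 201 CPM in non-apoptotic cells (log2 fold change 0.31, adjusted p 0.0245), while IL1B had 858 and 920.0 CPM in apoptotic cells and 1079 and 1102 CPM in non-apoptotic cells (log2 fold change -0.30, adjusted p 0.00258). CSF3 was also higher (log2 fold change 0.19, adjusted p 0.0329), as was TNFAIP2 (log2 fold change 0.23, adjusted p 0.00301), and the NF-kB subunit gene NFKB1 was lower (log2 fold change -0.19, adjusted p 0.0317). Of 24 immediate early genes 1 passed, IER3, higher at a log2 fold change of 0.18 (adjusted p 0.0479). Of 15 ERK feedback genes, 5 were lower and none higher, and 2 were lower without apoptotic library 1, 1 without non-apoptotic library 2, and 1 to 5 under the settings that kept every library, with ETV5 at 76.4 and 77.9 CPM in apoptotic cells and 96.6 and 97.4 CPM in non-apoptotic cells (log2 fold change -0.33, adjusted p 3.99e-04) and the phosphatase gene DUSP4 at a log2 fold change of -0.21. CXCL8 (adjusted p 0.0733 to 0.352) did not pass without apoptotic library 1, apoptotic library 2 or non-apoptotic library 2, CSF3 (adjusted p 0.0765 to 0.207) and IER3 (adjusted p 0.0681 to 0.319) without any 1 of the 4 libraries, TNFAIP2 (adjusted p 0.0665 to 0.0967) without apoptotic library 2 or non-apoptotic library 1, NFKB1 (adjusted p 0.231 to 0.246) without apoptotic library 2 or non-apoptotic library 2 and DUSP4 (adjusted p 0.0758) without non-apoptotic library 2. CXCL8 also did not pass in 2 settings that kept every library (adjusted p 0.0858 to 0.155), CSF3 in 2 (adjusted p 0.067 to 0.206), TNFAIP2 in 1 (adjusted p 0.0569), NFKB1 in 4 (adjusted p 0.061 to 0.124), IER3 in 3 (adjusted p 0.0727 to 0.185) and DUSP4 in 1 (adjusted p 0.0509).

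Genes of matrix and of YAP and TAZ signalling were higher more often than lower. The matrix list had 27.3% higher and 9.09% lower, and the YAP and TAZ list 23.8% and 4.76%. Over all genes the shares were 7.99% and 11.3%, and over protein-coding genes 7.1% and 14.1%. Of 22 collagen, laminin and matricellular genes, 6 were higher and 2 lower, and 3 were higher without apoptotic library 1. COL7A1, the collagen of anchoring fibrils, had 896 and 928 CPM in apoptotic cells and 449 and 567 CPM in non-apoptotic cells, 1.79-fold higher (log2 fold change 0.84, SE 0.078, adjusted p 7.03e-10). LAMA5, a laminin chain of basement membranes, had 949 and 1034 CPM in apoptotic cells and 651 and 755 CPM in non-apoptotic cells (log2 fold change 0.49, adjusted p 3.58e-05). Of 21 YAP and TAZ target genes, 5 were higher and 1 lower, and 3 were higher without apoptotic library 1 or without non-apoptotic library 2. These genes are known to fall when cells lose attachment: CYR61 had 279 and 236 CPM in apoptotic cells and 199 and 165 CPM in non-apoptotic cells at 1 day, and averaged 2726 CPM in attached Tpm2.1 cells (log2 fold change between the fractions 0.50, SE 0.082, adjusted p 2.24e-05). ANKRD1 had 73.1 and 60.9 CPM in apoptotic cells and 51.5 and 42.3 CPM in non-apoptotic cells (log2 fold change 0.53, adjusted p 1.08e-04), and CTGF 102 and 87.1 CPM in apoptotic cells and 87.4 and 71.3 CPM in non-apoptotic cells (log2 fold change 0.26, adjusted p 0.0289). CTGF (adjusted p 0.435 to 0.548) did not pass without apoptotic library 1 or non-apoptotic library 2.

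Actin and focal adhesion genes were lower more often than all genes. Of 34, 18 were lower (52.9%, beside 11.3% of all genes and 14.1% of protein-coding genes) and none higher. MYL6, a myosin light chain, had 209 and 185 CPM in apoptotic cells and 268 and 289.8 CPM in non-apoptotic cells (log2 fold change -0.50, SE 0.07, adjusted p 2.26e-06), the actin-binding PFN1 had a log2 fold change of -0.41, and the actin genes ACTB and ACTG1 had -0.27 and -0.30. The other adhesion lists lay nearer the share of all genes. Among 13 integrin genes, of which 7.69% were lower and 7.69% higher, ITGB1, the chain most matrix receptors share, was lower (log2 fold change -0.17, adjusted p 0.0282), and ITGA10, a collagen receptor chain, was higher with 23.4 and 28.3 CPM in apoptotic cells and 16.4 and 21.1 CPM in non-apoptotic cells (log2 fold change 0.44, adjusted p 0.0298). Of 25 cell-cell adhesion genes, 16.0% were lower: the catenin genes CTNNA1 (log2 fold change -0.28), CTNNB1 (log2 fold change -0.29) and CTNND1 (log2 fold change -0.21) and the cadherin gene CDH4 (log2 fold change -0.17). The cadherin gene CDH24 was higher (log2 fold change 0.46, adjusted p 0.00228). Of 15 matrix protease and inhibitor genes, the inhibitors TIMP1 (log2 fold change -0.29) and TIMP3 (log2 fold change -0.25) were lower (13.3%). ITGB1 (adjusted p 0.203 to 0.441), ITGA10 (adjusted p 0.317 to 0.318) and TIMP1 (adjusted p 0.102 to 0.154) did not pass without apoptotic library 2 or non-apoptotic library 1, CTNND1 (adjusted p 0.0514) without non-apoptotic library 1, CDH4 (adjusted p 0.0547 to 0.309) without any 1 of the 4 libraries and CDH24 (adjusted p 0.0889) without apoptotic library 2. ITGB1 also did not pass in 2 settings that kept every library (adjusted p 0.0764 to 0.143), ITGA10 in 1 (adjusted p 0.0976) and CDH4 in 4 (adjusted p 0.0873 to 0.173).

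None of 11 Eph and ephrin genes passed. The receptor gene EPHA2 had 564 and 525 CPM in apoptotic cells and 570.2 and 559 CPM in non-apoptotic cells, with overlap (log2 fold change -0.05, SE 0.051, adjusted p 0.526). Of 24 PI3K, AKT and mTOR genes, AKT2 was higher with 119 and 114 CPM in apoptotic cells and 93.1 and 97.2 CPM in non-apoptotic cells (log2 fold change 0.29, SE 0.066, adjusted p 0.00162). AKT1 had 145 and 142 CPM in apoptotic cells and 149 and 159 CPM in non-apoptotic cells and did not pass (log2 fold change -0.11, adjusted p 0.296). MTOR (log2 fold change -0.17, adjusted p 0.0308) and MAPKAP1, a subunit of mTOR complex 2 (log2 fold change -0.29, adjusted p 4.56e-04), were lower. The list thus had 4.17% higher and 8.33% lower, both under the shares of all genes, 7.99% and 11.3%. Of 19 FOXO target genes, PDK4, TXNIP and CITED2 were lower, and none without apoptotic library 1 or without non-apoptotic library 2, with PDK4 at 5.84 and 6.92 CPM in apoptotic cells and 9.52 and 9.91 CPM in non-apoptotic cells (log2 fold change -0.61, adjusted p 0.0119). The lower FOXO target genes were 15.8% of their list, near the 14.1% of protein-coding genes that were lower. None of 12 genes of the EGF receptor family and its ligands passed. Of 11 EMT and intermediate filament genes, the transcription factor SNAI2 was higher (log2 fold change 0.32, adjusted p 0.00301), beside the 2 keratins that were lower. These are 9.09% and 18.2% of that list. MTOR (adjusted p 0.0618 to 0.174) did not pass without any 1 of the 4 libraries, PDK4 (adjusted p 0.0744 to 0.137) without apoptotic library 1 or non-apoptotic library 2 and SNAI2 (adjusted p 0.0511) without non-apoptotic library 2. MTOR also did not pass in 4 settings that kept every library (adjusted p 0.0612 to 0.109).

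Proliferation genes were partly lower. Over protein-coding genes 14.1% were lower and 7.1% higher. Of 30 G1/S and replication genes, 9 were lower and 1 higher, and 3 were lower without apoptotic library 2, with the helicase subunit MCM6 at 57.3 and 53.9 CPM in apoptotic cells and 67.8 and 71.6 CPM in non-apoptotic cells (log2 fold change -0.33, adjusted p 6.86e-04) and the ligase LIG1 higher at a log2 fold change of 0.33 (adjusted p 0.0059). Of 30 G2/M and mitosis genes, 10 were lower and 2 higher, and 6 were lower without apoptotic library 1 or without non-apoptotic library 1. The kinesin KIF20A had 86.8 and 92.2 CPM in apoptotic cells and 115 and 121 CPM in non-apoptotic cells (log2 fold change -0.40, adjusted p 1.72e-05) and the cyclin CCNB1 had a log2 fold change of -0.29 (adjusted p 1.65e-04). The 2 that were higher are MKI67, with 452 and 452 CPM in apoptotic cells and 353 and 376 CPM in non-apoptotic cells (log2 fold change 0.31, adjusted p 9.64e-04), and CENPF (log2 fold change 0.33, adjusted p 7.25e-04), both with long transcripts. Of 10 tested histone cluster genes 1 passed, HIST1H2BK, lower at a log2 fold change of -0.51 (adjusted p 1.85e-04). LIG1 (adjusted p 0.0909 to 0.0948) did not pass without apoptotic library 1 or non-apoptotic library 1.

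Apart from the mitochondrial mRNAs, 2 genes were among the 12 highest protein-coding genes with at least 10 CPM. RHBDL1, a rhomboid-like protease, had 18.5 and 15.9 CPM in apoptotic cells and 6.96 and 6.95 CPM in non-apoptotic cells (log2 fold change 1.31, SE 0.18, adjusted p 1.89e-06). U2AF1, a splicing factor subunit, had 38.0 and 12.9 CPM in apoptotic cells and 1.84 and 2.02 CPM in non-apoptotic cells (log2 fold change 3.72, SE 0.58). Reads of U2AF1 could have been split with its near-identical copy U2AF1L5, which had 14.9 and 9.93 CPM in apoptotic cells and 6.04 and 29.7 CPM in non-apoptotic cells, and the sum of both copies was 53 and 22.9 CPM in apoptotic cells and 7.88 and 31.7 CPM in non-apoptotic cells, with overlap. The lowest entry, SMN1 (log2 fold change -1.73, SE 0.52), also has a near-identical copy, SMN2, and both together had 29.9 and 24.8 CPM in apoptotic cells and 55.7 and 79.8 CPM in non-apoptotic cells, without overlap. GPR89B (log2 fold change -1.43), the next lowest, shares its sequence with GPR89A, and both together had 19.6 and 14.7 CPM in apoptotic cells and 25.5 and 21.1 CPM in non-apoptotic cells. The other low entries besides ribosomal and respiratory genes were SNRPG, a core protein of spliceosomes (log2 fold change -0.71, adjusted p 5.40e-06), the RNA polymerase subunit POLR2I (log2 fold change -0.71), the Mediator subunit MED27 (log2 fold change -0.67), the phosphatase regulator IGBP1 (log2 fold change -0.66) and OST4, a subunit of the oligosaccharyltransferase (log2 fold change -0.65). POLR2I shares 79.6% of its exonic bases with overlapping genes. Among abundant nuclear genes that were higher, chosen after their values were seen, SPG7, a protease of the inner mitochondrial membrane, had 316 and 309 CPM in apoptotic cells and 171 and 178 CPM in non-apoptotic cells (log2 fold change 0.84, SE 0.089), and MDM4, an inhibitor of p53, had 44.1 and 43.2 CPM in apoptotic cells and 24.0 and 23.6 CPM in non-apoptotic cells (log2 fold change 0.88, SE 0.10). SMN1 (adjusted p 0.0539 to 0.13) did not pass without apoptotic library 1, apoptotic library 2 or non-apoptotic library 2 and GPR89B (adjusted p 0.0536) without apoptotic library 1. SMN1 also did not pass in 1 setting that kept every library (adjusted p 0.0847).

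Gene length moved with the difference. With protein-coding genes split into 5 groups of equal size by length, the median log2 fold change was -0.11 in the group of shortest genes, where 20.8% were lower and 3.30% higher, and -0.01 in that of the longest, where 8.33% were lower and 10.8% higher. Ribosomal and respiratory genes were not all short by this measure. RPS18 has 1898 exonic bases and RPL14 8626, while COX7C has 1993 and SDHC 14160, and the group of shortest genes ends at 2952. Exonic bases are counted over all annotated transcripts of a gene, so they can exceed the length of its mRNA. Whether the difference moved with mRNA length was not tested. With the length trend removed 40 of 40 ribosomal protein genes and 22 of 30 nuclear-encoded respiratory genes were lower. GC content also moved with the difference, and not in 1 direction. In 5 groups by GC content, the median was -0.03 in the group of lowest GC, -0.11 in the middle group, where 20.2% were lower and 4.35% higher, and 0.05 in the group of highest GC, where 6.68% were lower and 12.9% higher. With the GC trend removed 2946 of the 3317 genes still differed, and with the length trend removed 3143.

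The difference between the fractions at 1 day was set against those at 5 hours and 2 days to ask which genes separated the fractions otherwise at those times. The difference at 5 hours had 3683 genes past the threshold (21.4%), that at 2 days 2858 (16.6%). A test of the change in difference found 199 genes between 1 day and 5 hours (1.16%), 39 with a higher (0.227%) and 160 with a lower (0.931%) log2 fold change at 1 day. That balance moved with the scaling and the tool: 86 were higher and 84 lower with DESeq2 size factors, and 276 higher and 214 lower with DESeq2. The test found 3 genes between 1 day and 2 days (0.0175%).

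**Figure D5:**
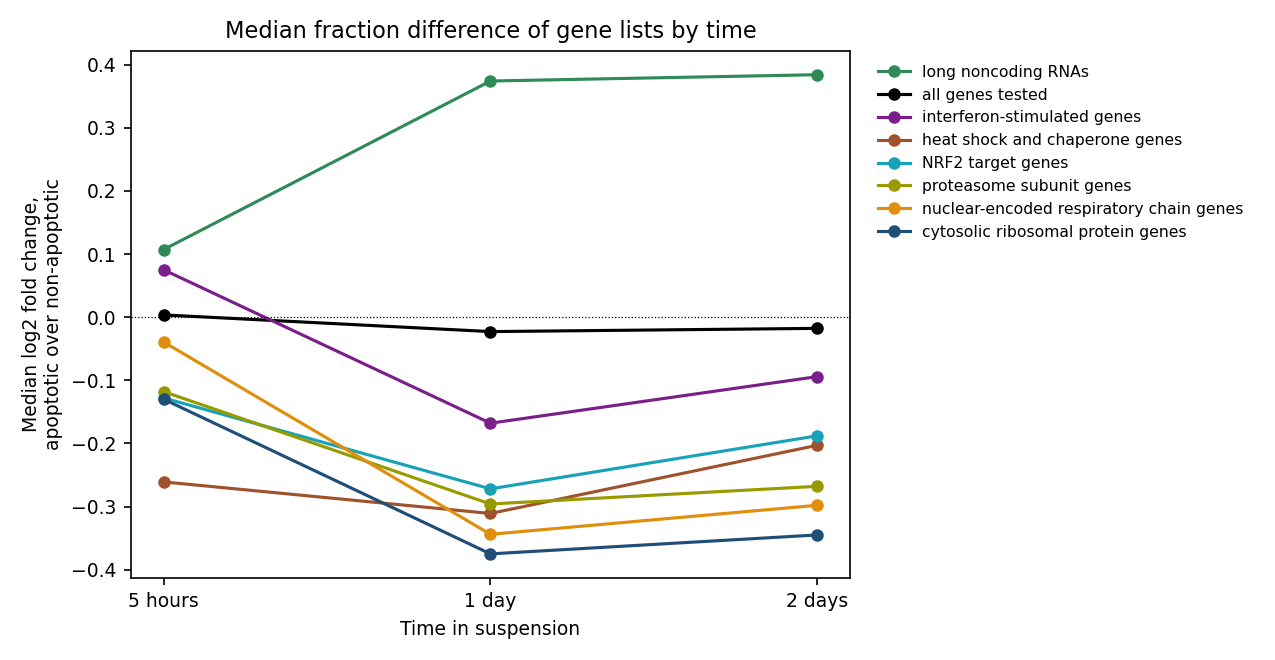
Median log2 fold change of apoptotic over non-apoptotic cells (vertical axis) at 5 hours, 1 day and 2 days in suspension (horizontal axis) for 7 gene lists and all genes tested (black). The ribosomal protein list lies at -0.13, -0.38 and -0.35 at the 3 times, and all genes tested lie at 0.00, -0.02 and -0.02.

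Ribosomal protein genes made up part of the change from 5 hours. At 5 hours 14 of the 40 were lower and 1 higher, against 40 lower at 1 day and 40 lower at 2 days, beside 11.8% of all genes lower at 5 hours and 9.71% at 2 days. The change itself passed for 20 of the 40, all 20 with a lower log2 fold change at 1 day. Over all genes it passed for 1.16%, and for 0.931% with a lower log2 fold change at 1 day. In all, 48 genes passed with the GC trend removed and 62 with the length trend removed. How many of the 20 remained is not reported here. RPS28 had log2 fold changes of 0.06 at 5 hours, -0.53 at 1 day and -0.24 at 2 days, a change of -0.59 between 1 day and 5 hours (SE 0.087, adjusted p 2.49e-04). RPS29, outside the list and one of the 4 lowest genes of this test, averaged 251 CPM in apoptotic cells and 184 CPM in non-apoptotic cells at 5 hours, against 210.1 CPM in apoptotic cells and 296 CPM in non-apoptotic cells at 1 day (change -0.95, SE 0.15, adjusted p 3.49e-04). Among nuclear-encoded respiratory genes the change passed for 8 of 30, among them UQCRQ (log2 fold changes of 0.04 at 5 hours and -0.48 at 1 day, adjusted p of the change 8.17e-04), and among proteasome genes for 6 of 25.

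TPM2 was itself one of the genes whose difference changed. It averaged 2575 CPM in apoptotic cells and 2556 CPM in non-apoptotic cells at 5 hours, 3777 and 4960.0 CPM in these fractions at 1 day, and 4507 and 5823 CPM at 2 days. The log2 fold change at 1 day was lower than at 5 hours by a change of -0.40 (SE 0.10, adjusted p 0.0358). ISG15 had a log2 fold change of 0.09 at 5 hours and -0.41 at 1 day (change -0.50, adjusted p 0.00753), one of 4 interferon-stimulated genes that passed. SNAI2 changed the other way, at -0.13 at 5 hours and 0.32 at 1 day (change 0.45, adjusted p 0.0238). For the mitochondrial mRNAs the change passed in none of 13, with a median of -0.18. SNAI2 (adjusted p 0.0511) did not pass without non-apoptotic library 2. The change of TPM2 (adjusted p 0.0916 to 0.313) did not pass without apoptotic library 2 at 1 day, non-apoptotic library 2 at 1 day, apoptotic library 1 at 5 hours, non-apoptotic library 1 at 5 hours or non-apoptotic library 2 at 5 hours, ISG15 (adjusted p 0.0541 to 0.142) without apoptotic library 2 at 1 day or non-apoptotic library 1 at 5 hours and SNAI2 (adjusted p 0.0611 to 0.181) without apoptotic library 1 at 1 day, apoptotic library 2 at 1 day, non-apoptotic library 2 at 1 day, apoptotic library 1 at 5 hours, apoptotic library 2 at 5 hours or non-apoptotic library 1 at 5 hours. The change of TPM2 also did not pass in 4 settings that kept every library (adjusted p 0.0631 to 0.265), ISG15 in 2 (adjusted p 0.0961 to 0.298) and SNAI2 in 3 (adjusted p 0.0563 to 0.109).

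GC content and length moved with the change from 5 hours. With the GC trend removed 48 genes passed in place of 199, and with the length trend removed 62. The count was 17 when apoptotic library 2 at 1 day was left out, 31 without non-apoptotic library 2 at 1 day, 27 without non-apoptotic library 1 at 5 hours, 73 without apoptotic library 1 at 5 hours and 83 without non-apoptotic library 2 at 5 hours.

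The genes whose difference changed between 1 day and 2 days were TNFRSF12A, GLRX5 and SDF2L1. TNFRSF12A, the receptor of the cytokine TWEAK, averaged 92.0 CPM in apoptotic cells and 78.6 CPM in non-apoptotic cells at 1 day, against 70.4 CPM in apoptotic cells and 90.8 CPM in non-apoptotic cells at 2 days (change 0.59, SE 0.099, adjusted p 0.0115). SDF2L1, of the endoplasmic reticulum, had log2 fold changes of 0.10 at 1 day and -0.60 at 2 days (adjusted p of the change 0.016), and GLRX5, a mitochondrial iron-sulfur cluster protein, 0.05 at 1 day and -0.60 at 2 days (adjusted p of the change 0.0476). No gene passed in this test when 1 of 4 libraries was left out, namely apoptotic library 1 at 1 day, non-apoptotic library 1 at 1 day, apoptotic library 2 at 2 days or non-apoptotic library 2 at 2 days. The count was 12 without apoptotic library 2 at 1 day, 22 without non-apoptotic library 2 at 1 day, 72 without apoptotic library 1 at 2 days and 30 without non-apoptotic library 1 at 2 days. None passed with the length trend removed or in a fit of the 8 libraries alone. GLRX5 also did not pass without apoptotic library 1 at 2 days, nor SDF2L1 and TNFRSF12A with the GC trend removed.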

How the data were processed

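Poly-A RNA was sequenced from 28 libraries in 14 groups of 2, per the labels, which give no stranding. The authors deposited raw counts per gene for 58735 genes and FPKM values (count per gene length and library total). Build hg38 and the tool DESeq2 are named, per the submitters' processing notes, and aligner and counter were not given in the sources used here. Counts were tested here with edgeR 4.0.16 (R 4.3.3) after filterByExpr (17191 genes kept) and TMM scaling, with 1 mean per group over all 28 libraries, 14 residual degrees of freedom, and Benjamini-Hochberg adjustment over all genes tested. The SE of a log2 fold change is its size over the root of F. The smallest exact p of 2 against 2 libraries is 0.333, so no single value was tested alone. Total counts of 13271736 to 19523273 lie behind the 4 libraries compared.

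Members and gene lists were chosen with earlier results of these data known. Named genes are TPM2, EPHA2, AKT1, AKT2 and BMF, the 12 highest and 12 lowest protein-coding genes with 10 CPM or more in the higher fraction that passed without overlap, the 3 members of each list with the smallest p (1 CPM or more), and the 4 highest and 4 lowest genes of each test between times. Other members are named for their known role or to complete a short count, after their values were seen, and some genes are not reported here. Alternatives were DESeq2 1.42.0, its size factors, no filter, the 4 libraries of the comparison alone (8 for changes between times), no apoptotic libraries of 4 days, a replicate block, removal of GC or length trends (lowess, span 0.2), protein-coding genes alone, and each library left out. A fit without mitochondrial genes was added after the data were seen. Exon overlaps came from GENCODE on hg38, promoter windows from RefSeq on GRCh38.p14.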

Additional observations from a re-analysis of the deposited data

Results flagged for a closer look

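The difference between the fractions was not the same at all times, by tests of the change itself in edgeR with adjustment over all genes. Between 1 day and 5 hours 199 genes passed, and between 1 day and 2 days 3 genes passed. Of the 4 named genes whose log2 fold change was higher at 1 day than at 5 hours, FAM133B changed by 1.12 (adjusted p 0.00874), with -0.25 at 5 hours and 0.87 at 1 day. SLC33A1, an acetyl-CoA transporter of the endoplasmic reticulum, changed by 0.66, with 0.09 at 5 hours and 0.75 at 1 day. ZNF280C changed by 0.83 and ZBED3 by 0.70. Of the 4 that were lower at 1 day, RPS29 changed by -0.95, CCDC167 by -0.91, IFI27L2, a relative of an interferon-induced gene, by -0.84 and DUSP23, a phosphatase, by -0.78, with log2 fold changes of 0.45, 0.35, 0.42 and 0.45 at 5 hours and -0.50, -0.56, -0.42 and -0.34 at 1 day. Apart from RPS29, these are low genes, with mean levels of 6.41 to 33.7 CPM in the 4 groups. Of these 8 genes, the change of 7 did not pass without apoptotic library 2 at 1 day or without non-apoptotic library 1 at 5 hours, all but RPS29. Over every single library left out that ended a call, the adjusted p was 0.0611 to 0.115 for FAM133B (2 libraries), 0.134 to 0.207 for SLC33A1 (4), 0.0678 to 0.241 for ZNF280C (6), 0.0688 to 0.36 for ZBED3 (7), 0.0564 to 0.285 for CCDC167 (5), 0.0916 to 0.402 for IFI27L2 (5) and 0.0844 to 0.338 for DUSP23 (6). With every library kept, those 7 except FAM133B did not pass with the GC trend removed, and CCDC167, IFI27L2 and DUSP23 did not with DESeq2 size factors. Between 1 day and 2 days the changes were 0.70 for SDF2L1, 0.64 for GLRX5 and 0.59 for TNFRSF12A. GC content and length moved with the change from 5 hours, as the counts of 48 and 62 genes after removal of each trend show.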

How the results depend on the processing

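At 1 day, 2957 genes differed with DESeq2, 3919 without the apoptotic libraries of 4 days, 3755 with a replicate block and 3405 without mitochondrial genes. With every library of the comparison kept, counts at 1 day moved by over 1.5 times in these cases. Lower genes were 1228 with the 4 libraries fitted alone, against 1944. Genes past 2-fold were 140 among protein-coding genes alone, where fewer genes were tested, against 383. Some counts with 1 library left out moved by over 1.5 times as well. With each library left out in turn, 1755 to 2391 genes differed, 699 to 961 higher and 1037 to 1430 lower, and 184 to 343 past 2-fold. The change from 5 hours, 199 genes, became 490 with DESeq2, 333 with no filter on low counts, 305 without the apoptotic libraries of 4 days, 424 with a replicate block, 48 with the GC trend removed, 62 with the length trend removed, and 17 to 290 with 1 library left out. The change from 2 days, 3 genes, became 36 with DESeq2, 8 with DESeq2 size factors, 64 with no filter, 22 without the apoptotic libraries of 4 days, 24 with a replicate block, 1 with the GC trend removed, 8 without mitochondrial genes, 0 with the length trend removed or with 8 libraries alone, and 0 to 72 with 1 library left out. The cause was not tested. Libraries with the same number correlated by 0.00971, 0.053, 0.0492 and -0.00607 in their deviations, in the order of the 4 times, so the numbers were not taken as pairs, and the replicate block ended no call among the 153 gene values named.

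Of 1502 values of those genes under alternatives with every library, 1389 kept direction and side of the threshold, 97 no longer passed, and 7 changed sign. The 7 belonged to genes that did not pass: BAX (0.0039 with DESeq2, 0.00409 with its size factors, 0.0181 with 4 libraries alone, 0.0171 among protein-coding genes), BBC3 (-0.15) and SDF2L1 (-0.0631) with the GC trend removed, and MCL1 with no filter (-0.0279). With 1 library left out, BAX ranged from -0.076 to 0.0407, BCL2L11 from -0.0323 to 0.285, BMF from -0.133 to 0.0248, GLRX5 from -0.099 to 0.214, MCL1 from -0.0363 to 0.0488, PMAIP1 from -0.0988 to 0.00464, SDF2L1 from -0.00383 to 0.194, TNFRSF10B from -0.0917 to 0.0014, U2AF1L5 from -1.25 to 1.04 and XKR8 from -0.0995 to 0.00662. The 13 mitochondrial mRNAs passed under every alternative that tested them, and 35 to 40 of the 40 ribosomal protein genes were lower. Depth limits genes of a few CPM, such as DIABLO and KCNQ1OT1.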

Other observations

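Other classes of transcript also had more higher than lower genes, beside 7.99% higher and 11.3% lower over all genes. Of 251 transcribed unprocessed pseudogenes, 44 were higher in apoptotic cells (17.5%) and none lower, at a median log2 fold change of 0.28. Of 186 processed transcripts, 34 were higher (18.3%) and 3 lower (1.61%), at a median of 0.33, and of 171 genes still to be experimentally checked in the annotation, 25 were higher (14.6%) and none lower, at a median of 0.64. Apoptotic library 1 had 23476 genes with a count at a total of 14709948 and apoptotic library 2 had 23019 at 13271736, while non-apoptotic library 1 had 22423 at 14737386 and non-apoptotic library 2 had 23400 at 19523273.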
